A study of Homo sapiens with 4 samples.

Results

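Interferon-stimulated antiviral effector genes are genes that interferons switch on and whose products sense, bind, modify or block viral material. A list of 53 such genes was taken by gene symbol, and all 53 were found among the 23622 genes of the deposited table. The RNA came from MV4-11, an established line of human acute myeloid leukemia cells, in 2 groups of 2 libraries each. All 4 libraries carry the genotype WT in the labels. The sh-NC group, labelled as having no treatment, is named in the study for its non-targeting control hairpin, and the sh-IRF1 group carried a short hairpin RNA against IRF1. Hairpins were delivered by lentivirus to the whole culture and infected cells were selected with puromycin, so each group is a selected pool of 1 cell line. The labels name no added interferon or virus in either group. Nothing in the labels says that the libraries of a group came from separate cultures, so the p-values measure only the spread between these samples, which may be technical.

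Interferons bind receptors that carry JAK kinases, and the kinases phosphorylate STAT proteins. STAT2 and IRF9 take part in a complex that binds the interferon-stimulated response element, a DNA sequence built on repeated GAAA blocks. IRF1 is itself interferon-induced, binds sites that resemble the response element, and can hold part of the antiviral program at a basal level without added interferon. USP18 and the SOCS proteins damp the signal.

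The short hairpins, which define the knockdown, and 8 promoters are shown first. The promoters were picked because they hold the GAAA blocks, and show where these lie in some of the genes that moved. The study lists 2 hairpins against IRF1, and which of them is in which library is not given in the sources used here. Their target sequences follow, with the whole 21-base target in capitals.

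sh-IRF1#1: GCACCAGTGATCTGTACAACT

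sh-IRF1#2: GGAAATTACCTGAGGACATCA

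Among 252835 annotated human transcripts (GENCODE 44), the targets matched in full 12 and 13 transcripts, all of IRF1. None of the transcripts with a full match, 0 in either search, belonged to an effector gene. Only full matches were searched, so partial matches to effector genes are not covered.

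The promoter windows come from RefSeq (GRCh38.p14) and are written on the strand of each gene. Capitals mark each response element, searched as GAAA, any 2 bases and GAAA again, on either strand, so that it can also read as TTTC, any 2 bases and TTTC. Overlapping matches run together. All windows lie before the annotated start of the transcript, except that of GBP4, which spans it. LGALS3BP, GBP4 and IFITM1 were lower in the sh-IRF1 libraries, and IFIH1, RSAD2, IFI6, ISG15 and PARP9 were higher.

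LGALS3BP, chr17:78979947-78980006, minus strand: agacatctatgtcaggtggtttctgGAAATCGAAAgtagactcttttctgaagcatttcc

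GBP4, chr1:89198927-89198956, minus strand: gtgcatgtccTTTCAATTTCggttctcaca

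IFITM1, chr11:313975-314034, plus strand: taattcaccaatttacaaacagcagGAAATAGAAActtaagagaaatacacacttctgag

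IFIH1, chr2:162318806-162318865, minus strand: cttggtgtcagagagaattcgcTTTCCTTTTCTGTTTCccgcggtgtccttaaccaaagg

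RSAD2, chr2:6877607-6877666, plus strand: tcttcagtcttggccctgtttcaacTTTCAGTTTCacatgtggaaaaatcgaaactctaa

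IFI6, chr1:27672262-27672321, minus strand: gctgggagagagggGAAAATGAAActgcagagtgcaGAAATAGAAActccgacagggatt

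ISG15, chr1:1013362-1013421, plus strand: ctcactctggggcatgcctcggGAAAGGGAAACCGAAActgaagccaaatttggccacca

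PARP9, chr3:122564307-122564366, minus strand: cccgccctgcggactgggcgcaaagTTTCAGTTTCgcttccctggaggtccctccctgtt

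A RefSeq promoter, 250 bases before to 50 bases after a start, was available for 40 of the 53 genes. Of these, 29 (72.5%) held the response element on either strand, against 4.38% of all 27305 genes with a promoter and 4% of the 10131 of them that were tested. The response element was in 8 of 11 promoters of effector genes that rose, in 5 of 6 of those that fell and in 12 of 19 of those that did not pass the test. The overlapping promoters of PARP9, which rose, and DTX3L, which did not pass, share a match that is counted for both. UBE2L6, TRIM25 and IFI35, which rose, and XAF1, which fell, had a promoter without it. All 4 untested genes with a promoter held it. A match of letters in these 300 bases is a description and does not show that a factor bound there.

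The deposited values, called normalized counts here, are reads per gene after division by a size factor of the library, and the reads could be recovered from them. The libraries held between 17635908 and 18695337 reads. IRF1 (ENSG00000125347), the targeted gene, had normalized counts of 785 and 738 in sh-NC and of 429.7 and 432 in sh-IRF1, which left 56.6% of the control level. On the log2 scale IRF1 fell by 0.82 (standard error 0.0904, adjusted p = 1.69e-10, limma). The 10 markers fixed for a myeloid leukemia line were all present, with summed normalized counts of 43802 to 44147 in sh-NC and 39995 to 40293 in sh-IRF1. The summed T cell markers stayed at or below 17.5. The T cell markers CD3D and CD3E were not found by symbol in the deposited table, and so were not analysed here. Summed B cell markers were 88.2 and 120.2 in sh-NC and 254 and 305 in sh-IRF1, a difference carried by CD79A. Summed fibroblast and endothelial markers were 1183 and 1418 in sh-NC and 3196 and 3124 in sh-IRF1, carried by PECAM1, which leukocytes also make. COL1A1, the fibroblast collagen analysed from that list, had at most 4.97 in any library. VWF, the other endothelial marker analysed, had 21.5 and 15.4 in sh-NC and 12.9 and 3.75 in sh-IRF1. It pointed the other way from PECAM1 without passing the test (log2 fold change -1.24, adjusted p = 0.110, limma). Of the myeloid markers, FLT3 and PTPRC fell (log2 fold changes -0.46 and -0.48), as did MPO (-1.42) and CSF1R (-0.19), while LYZ (0.85) and SPI1 (0.17) rose. Of the epithelial and packaging cell markers, summed at 343 and 254 in sh-NC and 391.9 and 361.7 in sh-IRF1, KRT8 rose (0.57, adjusted p = 0.0111), with 146 and 95.5 in sh-NC and 186 and 167 in sh-IRF1. As in ISG15 and IFI6, sh-NC replicate 1 was the higher sh-NC library for KRT8. The erythroid factor gene KLF1, the 1 erythroid marker analysed, fell from 27.7 and 28.8 to 11.9 and 10.3 (-1.27, adjusted p = 0.0317). The part of these shifts in the results that follow was not tested.

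Differences were tested with limma on log2(normalized count + 1) over the 14120 genes that reached 10 in 2 or more libraries, with Benjamini-Hochberg adjustment over all of them. The added 1 shrinks the difference between any 2 libraries most where reads are few, while averaging logs can move the group difference either way. A gene is said to have risen or fallen where its adjusted p is under 0.05. Permuting the 4 libraries of a single gene could give no two-sided exact p under 0.33, so each call depends on limma's variance estimate, which borrows from all genes. In bulk RNA, fewer cells of a type and less RNA per cell cannot be told apart.

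Of the 53 effector genes, 48 passed the filter on low values. Of these, 15 (31.25%) rose after IRF1 knockdown, beside 20.3% of all genes tested, and 9 (18.75%) fell, beside 21.9%. With a log2 fold change beyond 0.5 required as well, 9 rose and 6 fell (18.75% and 12.5%), beside 8.27% and 7.56% of all genes. In all, 24 passed the test (50%, beside 42.2%) and the other 24 did not. The role groups described below hold 3 to 7 tested genes each, so their counts of calls are to be read beside these shares of all genes. Members moved in both directions. The log2 fold changes of the called genes ran from -1.37 for LGALS3BP to 1.09 for IFIH1, and the median over the tested members was 0.08, beside 0.00 over all genes. The libraries of the groups did not overlap for 36 of the 48 (75%), beside 69.2% of all genes, and all 24 called genes were among the 36.

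**Figure D1:**
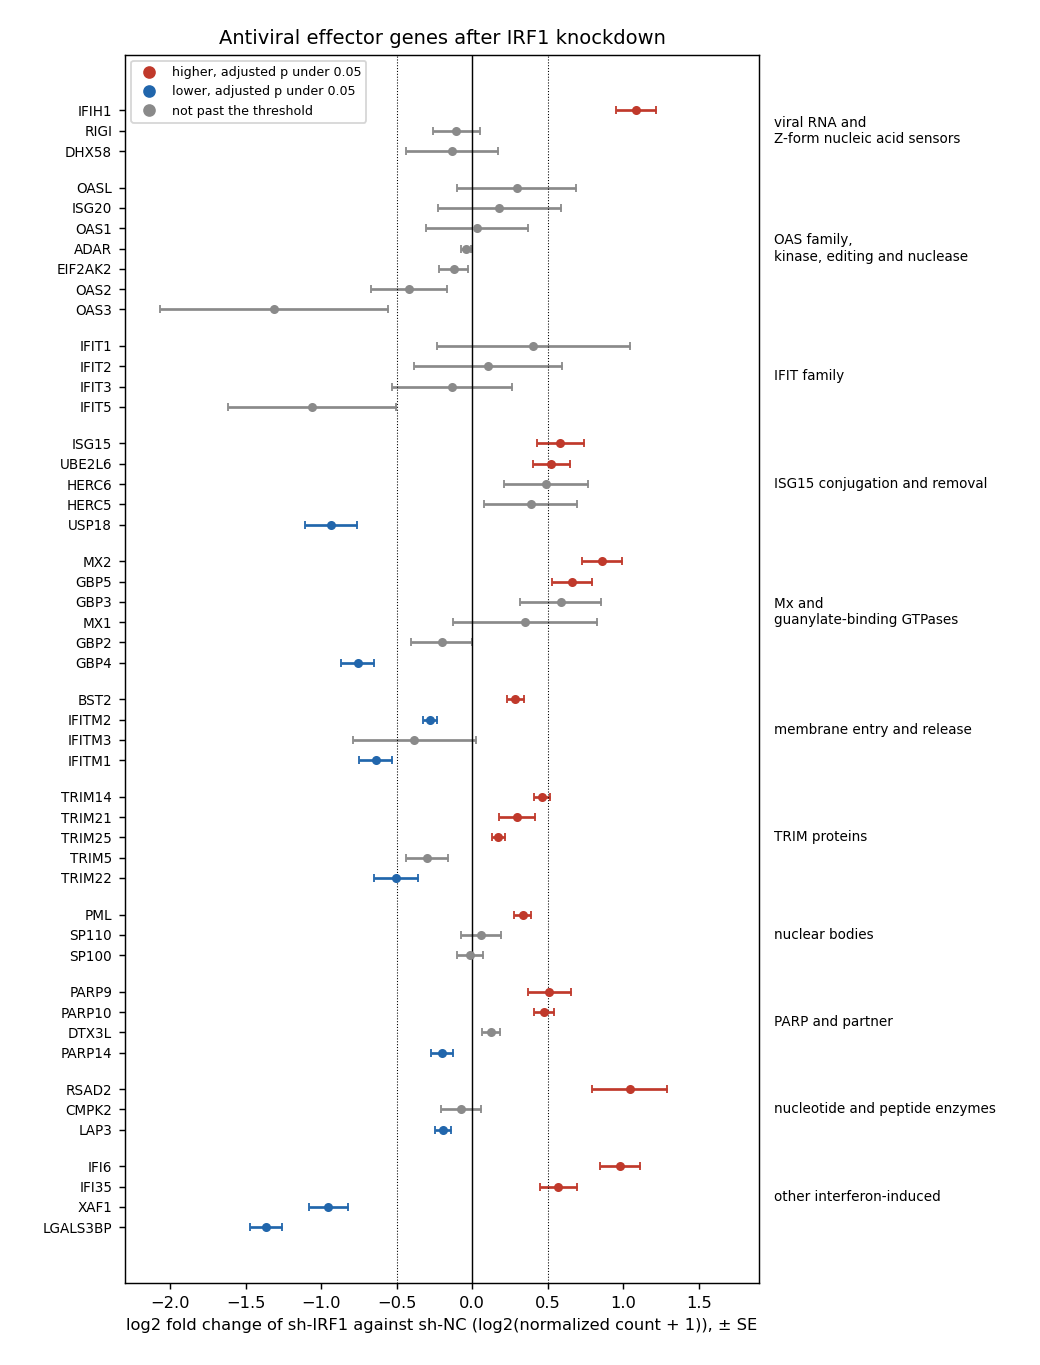
Log2 fold change between sh-IRF1 and sh-NC (horizontal axis, sh-IRF1 minus sh-NC of log2(normalized count + 1), n = 2 libraries per group) for the 48 tested effector genes, grouped by role, with bars for the standard error and dotted lines at -0.5 and 0.5. Red points (15 genes) rose and blue points (9) fell at an adjusted p under 0.05, and grey points (24) did not pass; the IFIT family and the OAS group hold grey points only.

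Among the sensors, 1 of 3 tested genes rose, beside 20.3% of all genes. IFIH1 (ENSG00000115267), which encodes MDA5, the sensor of long double-stranded RNA, had normalized counts of 176 and 177 in sh-NC and of 370.0 and 382 in sh-IRF1. Both sh-IRF1 libraries lay far above both sh-NC libraries, and replicates were close in each group. IFIH1 rose (log2 fold change 1.09, standard error 0.133, adjusted p = 2.43e-09, limma), the highest value of the 48 in this fit beside 1.04 for RSAD2, and leaving out any 1 library gave 1.06 to 1.11. RIGI, the sensor of short RNA with a triphosphate end, had a log2 fold change of -0.11 (95% interval -0.42 to 0.21), and another annotated gene covers 43.2% of its exonic bases. DHX58, which encodes LGP2, a regulator of both sensors, had 59.5 and 53.4 in sh-NC and 73.6 and 35.6 in sh-IRF1, values that overlapped. ZBP1, the sensor of Z-form nucleic acid, had 0 reads in both sh-NC libraries and 2 and 1 in sh-IRF1, all at or under 3 reads, and was not tested.

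None of the 7 genes of the OAS, kinase, editing and nuclease group passed the test in limma, edgeR or DESeq2 (0 in either direction), and 0 had an unadjusted p under 0.05 in limma. ADAR (ENSG00000160710), which edits adenosine to inosine in double-stranded RNA, had the most normalized counts of the group: 7415 and 7732 in sh-NC, and 7171 and 7531 in sh-IRF1. The groups overlapped, and the log2 fold change was -0.04 (standard error 0.0337, 95% interval -0.11 to 0.02). EIF2AK2, the RNA-activated kinase PKR, had a log2 fold change of -0.12 (95% interval -0.31 to 0.06). The OAS proteins make short oligoadenylates that activate RNase L. OAS1 had a log2 fold change of 0.03, OAS2 of -0.42 and OAS3 of -1.31, the last with a standard error of 0.756 and between 2 and 13 reads per library. The related OASL (0.29) and the exonuclease gene ISG20 (0.18) had means under 50 and standard errors of 0.395 and 0.408.

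The 4 IFIT genes are of a family in which some proteins bind the ends of foreign RNA. They gave 0 calls in either direction in limma, edgeR and DESeq2, and 0 had an unadjusted p under 0.05 in limma. IFIT3 (ENSG00000119917) had the most normalized counts, 34.9 and 23.6 in sh-NC and 27.9 and 24.4 in sh-IRF1, which overlapped. Its log2 fold change was -0.14 (standard error 0.397), and it turned to 0.14 without sh-NC replicate 1. IFIT1 had 0.40, IFIT2 0.11 and IFIT5 -1.06, with standard errors of 0.638, 0.491 and 0.556. The 95% interval of IFIT5 ran from -2.18 to 0.06. IFIT2 shares 13.6% of its exonic bases with other genes, among them LIPA on the opposite strand, which had between 1580 and 2053 reads per library.

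The genes for ISG15, a ubiquitin-like protein, and for its attachment and removal moved in both directions. ISG15 (ENSG00000187608) itself had normalized counts of 236 and 149 in sh-NC and of 275 and 289 in sh-IRF1. The sh-NC libraries lay further apart than the nearest libraries of the groups. ISG15 rose (log2 fold change 0.58, standard error 0.157, adjusted p = 0.00205), but without sh-NC replicate 2 its log2 fold change was 0.25 (adjusted p = 0.208) and without sh-IRF1 replicate 2 it was 0.55 (adjusted p = 0.0590). UBE2L6 (ENSG00000156587), its conjugating enzyme, had 294 and 241 in sh-NC and 406 and 363 in sh-IRF1. Both sh-IRF1 libraries were above both sh-NC libraries, and UBE2L6 rose (log2 fold change 0.52, standard error 0.124, adjusted p = 5.26e-04). USP18 (ENSG00000184979), the protease that removes ISG15 and also damps the type I receptor, went the other way. Its normalized counts were 218 and 207 in sh-NC and 104 and 118 in sh-IRF1, with no overlap. USP18 fell to 52.2% of the sh-NC mean (log2 fold change -0.93, standard error 0.171, adjusted p = 1.31e-05). The ligase gene HERC5 (0.39) and its relative HERC6 (0.49) did not pass the test. HERC6 passed without sh-NC replicate 1 (adjusted p = 0.0158), the higher of its sh-NC libraries.

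The dynamin-like Mx and guanylate-binding GTPases also split, with 2 of 6 tested genes higher and 1 lower, beside 20.3% and 21.9% of all genes. MX2 (ENSG00000183486), which blocks nuclear import of retroviral capsids, had normalized counts of 226 and 179 in sh-NC and of 381 and 350.4 in sh-IRF1. The groups did not overlap and MX2 rose to 181% of the control level (log2 fold change 0.86, standard error 0.135, adjusted p = 6.84e-07). MX1, its neighbour on chromosome 21, had at most 22.5 in any library (log2 fold change 0.35, standard error 0.477).

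GBP5 (ENSG00000154451), which promotes inflammasome assembly, had 205 and 221 in sh-NC and 366 and 310.1 in sh-IRF1, and rose (log2 fold change 0.66, standard error 0.133, adjusted p = 5.77e-05). GBP4 (ENSG00000162654), its neighbour among these genes on chromosome 1, had 616 and 522 in sh-NC and 307 and 364 in sh-IRF1. Both sh-IRF1 libraries were below both sh-NC libraries, and GBP4 fell (log2 fold change -0.76, standard error 0.109, adjusted p = 1.07e-07). The end of GBP4 and the start of GBP5 are at bases 89198942 and 89256189 of chromosome 1 in GENCODE 44 on GRCh38, and both lie on the minus strand. GBP3 had a log2 fold change of 0.58 with groups that did not overlap, at an adjusted p of 0.0774, and GBP2 one of -0.20. GBP1, a classical interferon gamma target, had 2 reads in sh-NC replicate 1 and 0 in the other libraries.

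**Figure D2:**
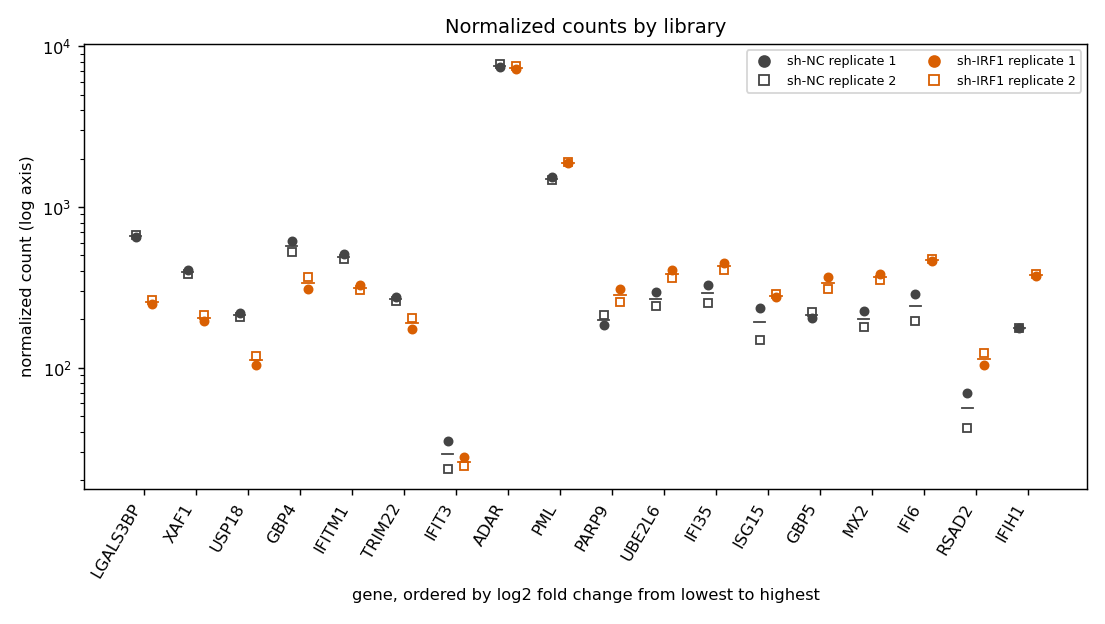
Normalized counts (vertical log axis) of the 18 effector genes described by library, ordered from the lowest to the highest log2 fold change; dark symbols are sh-NC, orange symbols sh-IRF1, filled circles replicate 1, open squares replicate 2, and short lines the group mean. LGALS3BP at the left falls from 652 and 674 to 249 and 265, ADAR near the middle overlaps between the groups, and IFIH1 at the right rises from 176 and 177 to 370.0 and 382.

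Among the proteins that act at membranes, IFITM1 and IFITM2 fell and BST2 rose. IFITM1 (ENSG00000185885), which hinders fusion of viral and cell membranes, had normalized counts of 511 and 474 in sh-NC and of 325 and 305 in sh-IRF1. The groups did not overlap, and IFITM1 fell to 64.1% of the control level (log2 fold change -0.64, standard error 0.109, adjusted p = 3.35e-06). IFITM2, which acts in endosomes, fell by less, with a log2 fold change of -0.28 (adjusted p = 1.00e-06). IFITM3 had 28.7 and 29.8 in sh-NC and 22.9 and 21.6 in sh-IRF1, and did not pass the test (log2 fold change -0.38, standard error 0.407). The 3 IFITM genes are similar in sequence, to unequal degrees, so reads may have been divided among them in the counting. BST2, or tetherin, holds budding virus at the cell surface, and rose by 0.29 on the log2 scale (standard error 0.0578, adjusted p = 6.24e-05).

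Of the 5 TRIM genes, 3 rose and 1 fell, beside 20.3% and 21.9% of all genes. TRIM22 (ENSG00000132274), a ubiquitin ligase that restricts retroviruses, had 274 and 262 in sh-NC and 174 and 204 in sh-IRF1. It fell without overlap of the groups (log2 fold change -0.50, standard error 0.144, adjusted p = 0.00370), but without sh-IRF1 replicate 1 its log2 fold change was -0.39 (adjusted p = 0.0804). TRIM5, which recognises retroviral capsids and overlaps the same locus, had a log2 fold change of -0.30 at an adjusted p of 0.0777. TRIM14, an adaptor of the MAVS pathway, rose (0.46, adjusted p = 8.08e-10), as did TRIM25, the ligase that modifies RIG-I (0.17, adjusted p = 6.16e-04). TRIM21, an antibody receptor in the cytosol, was called higher (0.30, adjusted p = 0.0382), but not by DESeq2 (adjusted p = 0.104), not without the filter on low values (0.0535) and not without sh-NC replicate 1, sh-IRF1 replicate 1 or sh-IRF1 replicate 2 (adjusted p between 0.0919 and 0.241).

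In the group of nuclear bodies, PML (ENSG00000140464), the scaffold protein of these bodies, had normalized counts of 1528 and 1469.8 in sh-NC and of 1884 and 1893 in sh-IRF1. All 4 values were close to their replicate and the groups did not overlap. PML rose (log2 fold change 0.33, standard error 0.0548, adjusted p = 1.84e-06). SP100 and SP110, which reside in the same bodies, had log2 fold changes of -0.02 (95% interval -0.19 to 0.16) and 0.06 (-0.20 to 0.32).

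The ADP-ribosyltransferase genes split as well. PARP9 (ENSG00000138496), which works in a complex with the ubiquitin ligase DTX3L, had 184 and 212 in sh-NC and 308 and 257 in sh-IRF1. The groups did not overlap and PARP9 rose (log2 fold change 0.51, standard error 0.143, adjusted p = 0.00303), but without sh-IRF1 replicate 1 its log2 fold change was 0.38 (adjusted p = 0.118). DTX3L, transcribed from the same region on the other strand, had 1320.2 and 1338 in sh-NC and 1462 and 1442 in sh-IRF1, missed the threshold (0.13, standard error 0.0594, adjusted p = 0.0804) and passed under scaling to total counts (adjusted p = 0.0163). PARP10 rose with a log2 fold change of 0.48 (adjusted p = 6.50e-08). PARP14 was called lower with a log2 fold change of -0.20 (adjusted p = 0.0216). That call was lost under DESeq2, under scaling to total counts, without sh-NC replicate 2 and without sh-IRF1 replicate 1, with adjusted p of 0.0632, 0.0758, 0.315 and 0.180. PARP10 and PARP14 transfer single ADP-ribose units.

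RSAD2 (ENSG00000134321), which encodes viperin, an enzyme that makes a chain-terminating nucleotide, had normalized counts of 69.8 and 42.1 in sh-NC and of 103 and 123 in sh-IRF1. The sh-NC libraries differed by 0.71 on the log2 scale, and both were below both sh-IRF1 libraries. RSAD2 rose (log2 fold change 1.04, standard error 0.249, adjusted p = 5.66e-04), by 0.68 without sh-NC replicate 2 and by 1.40 without sh-NC replicate 1. CMPK2, the mitochondrial nucleotide kinase gene beside it on the opposite strand, had a log2 fold change of -0.07 (95% interval -0.34 to 0.20). LAP3, a leucine aminopeptidase, fell by 0.19 on the log2 scale (adjusted p = 0.00273), a call lost without sh-IRF1 replicate 2 (adjusted p = 0.0513).

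The 4 tested genes with other or less defined roles all passed the test, 2 in each direction, where 42.2% of all genes passed. IFI6 (ENSG00000126709), a membrane protein that restricts flaviviruses and apoptosis, had 287 and 195 in sh-NC and 459 and 477 in sh-IRF1. The groups did not overlap and IFI6 rose to 194% of the control level (log2 fold change 0.98, standard error 0.131, adjusted p = 2.24e-08). IFI35 (ENSG00000068079), a leucine zipper protein, had 327 and 254 in sh-NC and 451 and 407 in sh-IRF1. It rose without overlap (log2 fold change 0.57, standard error 0.121, adjusted p = 1.30e-04).

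XAF1 (ENSG00000132530), an antagonist of the apoptosis inhibitor XIAP, had normalized counts of 408 and 384 in sh-NC and of 196 and 213 in sh-IRF1. The groups did not overlap and XAF1 fell to 51.6% of the control level (log2 fold change -0.95, standard error 0.127, adjusted p = 2.19e-08). LGALS3BP (ENSG00000108679), a secreted glycoprotein that binds galectins, had 652 and 674 in sh-NC and 249 and 265 in sh-IRF1. Both sh-IRF1 libraries lay far below both sh-NC libraries, with close replicates. LGALS3BP fell to 38.7% of the control level (log2 fold change -1.37, standard error 0.106, adjusted p = 4.28e-15), the lowest value of the 48 in this fit, and lay between -1.41 and -1.32 when any 1 library was dropped.

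IFI27, IFI44 and IFI44L, which are widely used as markers of an interferon response, could not be tested. IFI27 had between 6 and 11 reads per library, IFI44 between 2 and 8, and IFI44L between 2 and 6.

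For the genes described by library whose promoter is not shown, GENCODE 44 on GRCh38 places UBE2L6 at chr11:57551656-57568284 (minus strand), IFI35 at chr17:43006740-43014456 (plus strand), XAF1 at chr17:6755447-6775647 (plus strand), ADAR at chr1:154581695-154628013 (minus strand) and IFIT3 at chr10:89327307-89377473 (plus strand). It places USP18 at chr22:18150118-18177397 (plus strand), MX2 at chr21:41361999-41409393 (plus strand), GBP5 at chr1:89256189-89272860 (minus strand), TRIM22 at chr11:5689610-5737089 (plus strand) and PML at chr15:73994673-74047827 (plus strand), the 5 of these genes for which no promoter was matched. All 10 are annotated as protein-coding.

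XAF1, IFITM1 and IFI6 share 38.3%, 31.6% and 23.1% of their exonic bases with other annotated genes, and whether counting used strand is not given in the sources used here. The overlapping genes PRAL, ENSG00000254910 and LINC02574 had at most 8, 7 and 3 reads in any library. IFITM1 also overlaps ENSG00000288681 on its own strand, for which no reads were read out here. RSAD2 overlaps CMPK2, which had 253 to 268 reads, and PARP9 overlaps DTX3L, which had 1287 to 1539. PARP10 overlaps GRINA on the opposite strand, which had 3074 to 4302.

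**Figure D3:**
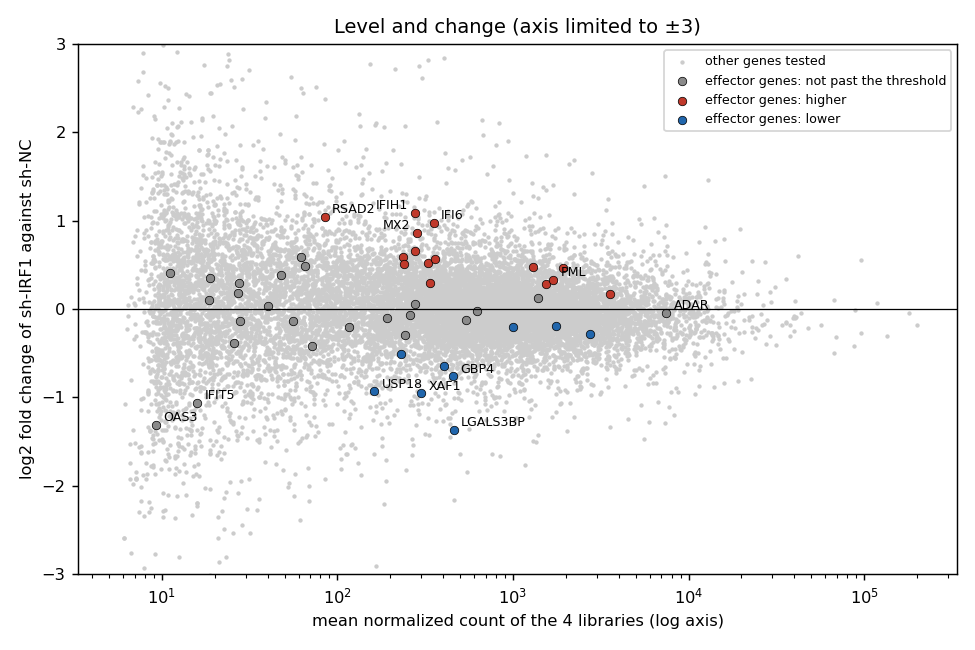
Mean normalized count over the 4 libraries (horizontal log axis) against the log2 fold change from sh-NC to sh-IRF1 (vertical axis, limited to -3 to 3) for all tested genes (light grey) and the 48 tested effector genes (outlined). None of the 11 effector genes with a mean under 50 was called, while the called genes lie further right and on both sides of 0.

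How precisely an effector gene was measured followed its level. The 11 tested members with a mean normalized count under 50 had standard errors of 0.309 to 0.756, and 0 of them were called by limma, edgeR or DESeq2, or had an unadjusted p under 0.05 in limma. The 25 members with a mean from 50 to 500 had standard errors of 0.106 to 0.303, and 16 were called. The 12 above 500 had standard errors of 0.0337 to 0.0933, and 8 were called. Over all levels 42.2% of all genes tested were called. The share of all genes called within each level class was not read out, so these counts do not set the members apart. Per kilobase of canonical transcript, the median level of the tested members in sh-NC was 72.4 normalized counts, beside 135 over the 14055 tested genes with a length, and 17 of the 48 lay above the latter. IFITM2 (2996 per kilobase), BST2 (1383) and ADAR (1146) stood at the top of this scale, and OAS3 (1.94) and IFIT1 (2.27) at the bottom of the tested members.

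Effector genes that lie side by side did not always move together. With a gap of at most 200 kb, 30 members fell into 11 loci, 10 of which held a tested gene. In 2 of these loci, called genes went in opposite directions: GBP5 rose and GBP4 fell, and PARP9 rose and PARP14 fell, the last with the calls lost that are given above. IFITM1 and IFITM2, the called genes of the IFITM cluster, both fell. In the IFIT cluster, the OAS cluster, the SP100 and SP110 pair and the HERC5 and HERC6 pair, no gene passed the test. In each of the remaining 3 loci 1 gene passed and its neighbour did not: RSAD2 beside CMPK2, MX2 beside MX1, and TRIM22 beside TRIM5. The difference between neighbours was not tested, and how often other neighbouring genes are called in this way was not read out. Of all genes tested, 20.3% rose and 21.9% fell.

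**Figure D4:**
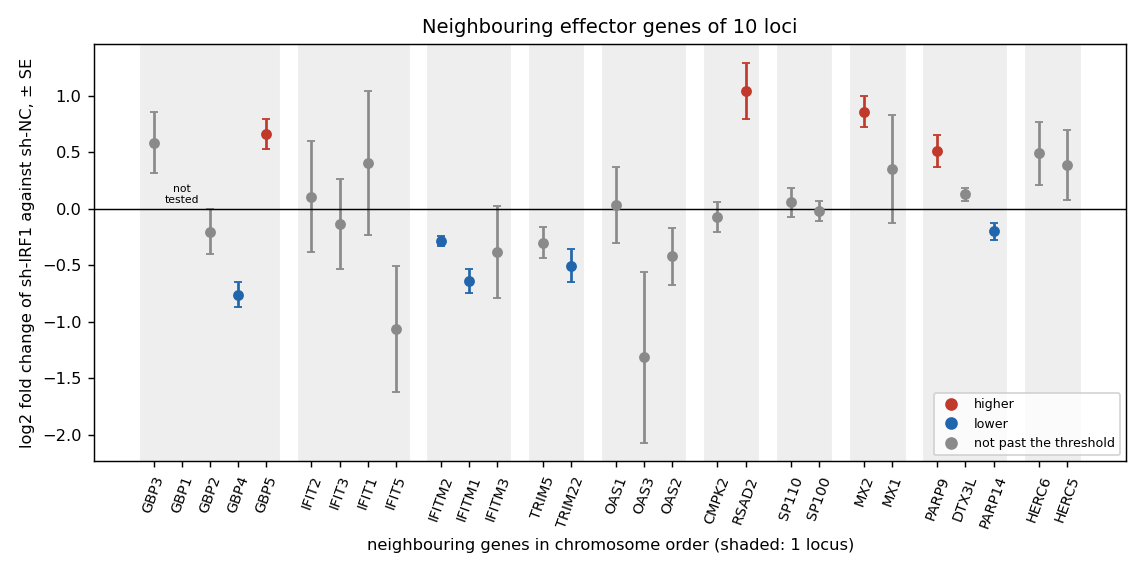
Log2 fold change from sh-NC to sh-IRF1 with standard errors (vertical axis, n = 2 libraries per group) for neighbouring effector genes in chromosome order, 1 shaded band per locus for the 10 loci with a tested gene. GBP4 (-0.76) and GBP5 (0.66) stand next to each other on opposite sides of 0, and GBP1 was not tested.

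Replicate libraries were compared for the members too. Among the 32 members with a mean of at least 100 over the 4 libraries, 5 had sh-NC libraries that differed by more than 0.3 on the log2 scale. Of the 9987 genes with a mean of at least 100, 5.84% did so. That class has no upper limit and was not matched to the members in level, so the shares are not directly comparable. Counting alone gave the sh-NC differences of these 5 members standard errors from 0.122 (IFI35) to 0.188 (GBP2). In all 5, sh-NC replicate 1 was the higher library. The sh-IRF1 libraries differed by that much for 0 of the 32, beside 5.13%. In ISG15, IFI6, MX2 and IFI35, which rose, sh-NC replicate 1 was higher than sh-NC replicate 2 by 0.66, 0.56, 0.33 and 0.37. The fold changes of these genes were therefore smaller without sh-NC replicate 2: 0.25 for ISG15, 0.70 for IFI6, 0.69 for MX2 and 0.39 for IFI35. GBP2, the other of the 5, did not pass the test, and its sh-NC replicate 1 was higher by 0.46. Over all 48 tested members sh-NC replicate 1 was the higher sh-NC library in 23 (47.9%), beside 50.1% of all genes.

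**Figure D5:**
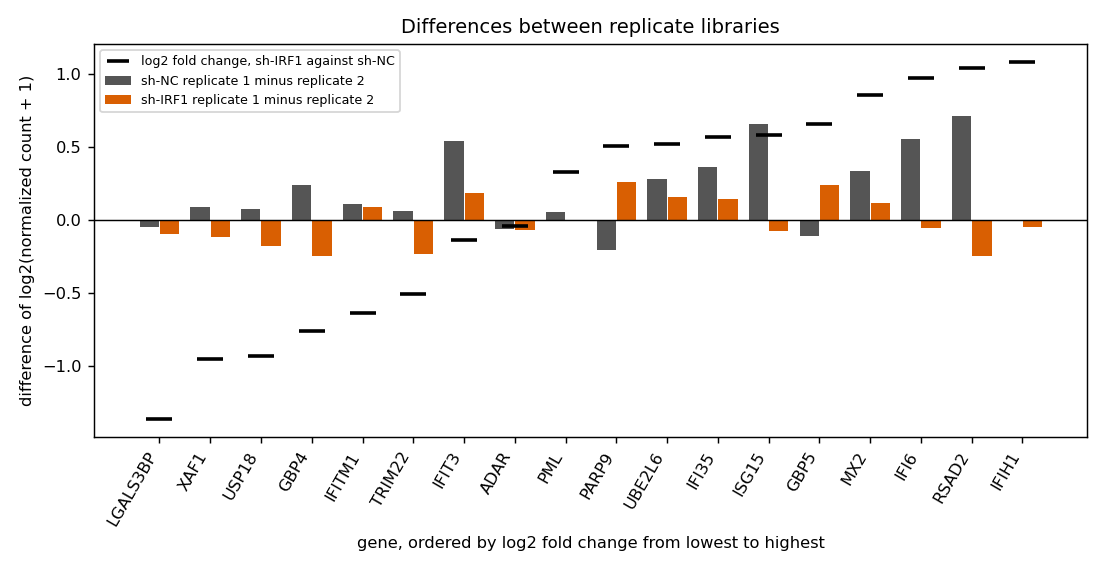
Difference between the replicate libraries of each group (bars, sh-NC dark and sh-IRF1 orange, replicate 1 minus replicate 2 of log2(normalized count + 1)) beside the log2 fold change between the groups (black dashes) for the 18 effector genes described by library. In ISG15 the sh-NC pair differed by 0.66 and the groups by 0.58, while in LGALS3BP the pairs differed by -0.05 and -0.09 and the groups by -1.37.

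The genes that carry the interferon signal were read out from a list of 40 ligands, receptors, kinases, transcription factors, brakes and sensing adaptors. Of these, 9 interferon ligands and the receptor gene IFNLR1 were not found by symbol in the deposited table, and so were not analysed here. That table lists 0 genes with no read in any library. TLR3 and TLR9 had too few reads to test. Of the 28 tested, 6 rose (21.4%, beside 20.3% of all genes) and 9 fell (32.1%, beside 21.9%), IRF1 among them. Beyond a log2 fold change of 0.5, IRF1 and TLR7 fell and 0 rose. IL10RB, a receptor subunit named here after its value was seen, had 1.07 with an unadjusted p of 0.0223 and an adjusted p of 0.0524. TLR7, an endosomal receptor for single-stranded RNA, had normalized counts of 45.1 and 51.4 in sh-NC and 24.9 and 22.5 in sh-IRF1, without overlap, and fell to 49.1% of the control level (standard error 0.354 on the log2 scale, adjusted p = 0.0201). The TLR7 call was lost under DESeq2 (adjusted p = 0.0613) and when any library but sh-NC replicate 1 was left out (adjusted p between 0.0520 and 0.112).

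Of the complex that binds the response element, STAT2 had a log2 fold change of 0.17 (95% interval -0.01 to 0.35, adjusted p = 0.128), and passed under scaling to total counts (adjusted p = 0.0495). IRF9 had between 5 and 21 reads per library and a log2 fold change of 0.54 (standard error 0.613). It turned to -0.33 without sh-NC replicate 1, which held 5 of those reads.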

How the data were processed

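RNA was sequenced from 2 sh-NC and 2 sh-IRF1 libraries of MV4-11 cells. The submitters' processing notes name HISAT2 2.0.5 and hg38, while the counting tool, its annotation and its strand setting are not given in the sources used here. The authors deposited a normalized signal: reads per gene after division by a size factor of the library. All values (100%, within 0.01 of a read) were whole multiples of the value of 1 read, so reads were recovered. The table held 0 columns of other samples.

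Symbols matched 23456 of 23622 Ensembl identifiers. Positions came from GENCODE 44 on GRCh38. limma 3.58.1 (R 4.3.3, trend and robust) was fitted on log2(value + 1) without a replicate term to genes with at least 10 in at least 2 libraries, and p-values were adjusted by Benjamini-Hochberg. The shared spread carried 43.0 prior degrees of freedom. edgeR 4.0.16 and DESeq2 1.42.0 were run on the recovered reads as alternatives, with other scalings, pseudocounts (0.5 and 5), filters (none and 50), a replicate block and each library left out.

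The 53 members, their role groups and the other lists were chosen with earlier results of these data known. Genes described by library were those called with a log2 fold change beyond 0.5, and the member with most normalized counts in each role group without one. Promoters were printed for up to 8 such genes with a response element match. On simulated data for this comparison (14093 genes), 100 of 100 genes changed by 1 on the log2 scale were recovered. Of those changed by 0.5, 83 of 100 were recovered, and 10 of 13893 unchanged genes were called. The changed genes were drawn only from those with a mean of at least 100, and all genes were given the same spread beyond counting. Of the 48 tested members 32 reach that mean, and recovery below it was not simulated. Reads without molecular identifiers are not independent molecules. No sequence was printed for PARP10. One gene of the interferon pathway list, counted there, is not reported here by name.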

Additional observations from a re-analysis of the deposited data

How the results depend on the processing

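Across 15 other fits, 18 of the 24 calls among the effector genes held in every one, 12 higher and 6 lower. The other 6 (ISG15, PARP9, TRIM21, TRIM22, PARP14 and LAP3) were each lost in at least 1. edgeR made the same 15 and 9 calls, and DESeq2, which gave no adjusted p for 9160 genes, made 14 and 8 of them. Leaving out each library gave between 13 and 15 higher and 7 to 9 lower, and a median log2 fold change of 0.06 to 0.12. With a log2 fold change beyond 0.5 required, 9 members were higher, and in the interferon pathway list 0 genes were higher and 2 lower. That list gave 3 to 7 higher and 5 to 7 lower with each library left out, the lowest (3 and 5) without sh-IRF1 replicate 2. Scaling to total counts moved the median of the members to 0.12 and that of all genes to 0.04, and ADAR to 0.0013. With each library left out, IFIT3 ran from -0.41 to 0.14 and IRF9 from -0.33 to 1.42, and both changed sign without sh-NC replicate 1. The cause was not tested in these cases. IRF1 stayed between -0.86 and -0.78. Of the 24 members not called, 10 changed sign under some alternative, and HERC6 and DTX3L passed under 1 each. Same-numbered libraries did not deviate together (correlation -0.015), and the replicate block gave the same calls, 15 higher and 9 lower. Leaving out 1 library assumes that the lone library varies like the other group. Depth limits the 11 tested members with a mean under 50 and the 5 untested ones.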
